A study of Mus musculus with 2 samples.

Results

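The 10 genes described here belong to the signalling system of bone morphogenetic proteins (BMPs), activins and growth and differentiation factors (GDFs), and were chosen by name: the ligand genes Bmp2, Bmp4, Bmp6, Gdf15 and Mstn, the activin subunit genes Inhba and Inhbb, the receptor gene Bmpr2, and the target genes Id1 and Id3. They are 10 of the 21368 genes that the RefSeq accessions on the array name, and they were read by 11 probes, 2 for Bmp4 and 1 for each other gene. Total RNA from mouse heart was labelled with Cy3 and measured in 2 samples, 1 control of C57BL6 background and 1 of the transgenic line B6.Cg-Tg (CAG-WRN*K577M), with the line number 5025Wcl/Mmmh, on that background. Each sample was read by a separate 1-colour Agilent array. The line, called WRN-K577M here, carries a substituted WRN, the DNA helicase that is lost in Werner syndrome, under CAG, a promoter active in most cell types. The study's stated purpose was to find signalling behind cardiac remodelling. The age of the animals, the meaning of the letters ND in both sample titles, and the number of hearts in a sample are not stated in the sources used here. The control or WRN-K577M heart below therefore means the sample, which may hold 1 heart or more.

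Most ligands of this family are secreted as dimers and bind a pair of type I and type II serine-threonine kinase receptors. This leads to phosphorylation of receptor Smads, which enter the nucleus with Smad4. BMPs act mainly through Smad1, Smad5 and Smad9, activins and myostatin through Smad2 and Smad3. In the heart BMPs are known for valve and chamber development and for endothelial homeostasis. GDF15 is known as a stress-induced cytokine that is read by a different receptor, in the hindbrain. The Id genes encode inhibitors of basic helix-loop-helix transcription factors and are direct targets of BMP-activated Smads.

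Of the 10 genes, 9 passed the software's limit for a signal well above background in both hearts (called measured below), and 1 of the 9, Gdf15, was at least 2-fold higher in the WRN-K577M heart. None was at least 2-fold lower. Over all 14003 measured genes, the shares past the same thresholds were 1.94% for higher and 3.46% for lower. Bmp6 and Inhbb were 1.59-fold and 1.58-fold higher, Bmp4 and Bmpr2 were higher by less than that, Bmp2 and Id1 were lower, and Inhba and Id3 were near equal. Myostatin (Mstn) was not well above background in either heart. With 1 array per group none of these differences can be tested between genotypes, and genotype cannot be told apart from whatever else distinguished the samples.

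A level is the log2 processed signal after subtraction of the 75th percentile over the array's probes, and ratios below are differences of these levels (log2), WRN-K577M minus control. Levels of different genes come from different probes and are not set against each other. Measurement error was judged in 2 ways, both of which cover the array and not the animals. Over 224 probes printed at 9 or 10 usable spots each, the log2 ratio varied between spots of a probe with an SD of 0.12, and 2 SD correspond to 1.18-fold. For the 9 measured members, the error that the software attaches to the signals gave 0.20 to 0.22 on the log2 ratio. Of the 9, 7 had a ratio beyond 2 spot SD, as had 47.9% of all measured genes, and 4 (Gdf15, Bmp6, Inhbb and Bmp2) had one beyond 2 software errors, as had 24.9% of all measured genes.

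Both arrays shared 1 slide and 1 scan. On the control array 55.2% of probes were well above background, and 52.9% on the WRN-K577M array. The 75th percentile of the processed signal was 256 and 210, so that scaling adds 0.29 to every log2 ratio. Of 12 cardiomyocyte markers all were measured, with a median ratio of 0.14. The control array also read lung genes: surfactant protein C (Sftpc) was read at 5.96 there and did not exceed background in the WRN-K577M heart, a difference of at least 1336-fold. Summed levels (linear, relative to the 75th percentile) were 192 and 47.9 for 11 lung markers (control first, then WRN-K577M) and 656 and 157 for 8 atrial markers. They were 820 and 192 for the erythroid markers, 73.6 and 20.8 for 12 macrophage and leukocyte markers, and 341 and 236 for 12 fibroblast markers. A sum is weighted to its brightest genes. In the WRN-K577M heart these were Hopx (5.21), Nppa (7.26) and Dcn (7.56) of the lung, atrial and fibroblast lists. In the control alone 6 of the 11 lung markers were well above background, and Scgb1a1 was 221-fold lower with the transgene. The median ratio was -2.93 for atrial markers, with Sln 678-fold lower, and -1.45 for fibroblast markers. The summed level was 218 and 195 for 15 endothelial markers and 97.6 and 111 for 9 smooth muscle and pericyte markers. It was 5679 and 6340 for the cardiomyocyte markers, 162 and 197 for 9 adipocyte markers, and 161 and 113 for 10 skeletal muscle markers. The brightest adipocyte marker was Fabp4 (7.07 and 7.59), while the list's median ratio was -2.93, with 5 of 6 measured genes at least 2-fold lower. The brightest skeletal muscle markers were Ckm, also a cardiomyocyte marker (6.63 and 6.23), and Acta1 (5.96 and 5.21). Tnnt3, Mylpf and Myf6 were dim and had ratios of 0.76, 0.79 and 0.54. Myh1, Myh2, Myh4, Actn3 and Myod1 fell short of the software's limit in both hearts. A difference in the tissue collected cannot be told apart from genotype with 1 sample of each. In bulk tissue, fewer cells of a type and less RNA per cell cannot be told apart, and the part of these differences in any result below was not tested. Marker values set beside a gene below come from the same 2 arrays and do not measure that part. One of 2 probes for the mouse Wrn gene was measured on both arrays, with levels of -3.02 and -3.23. Its second probe read -6.52 in the control, not well above background, and -3.96 with the transgene, so that Wrn was at least 1.71-fold higher by that probe and slightly lower by the first. Whether either probe reads the transgene is not known, so neither checks the label.

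**Figure D1:**
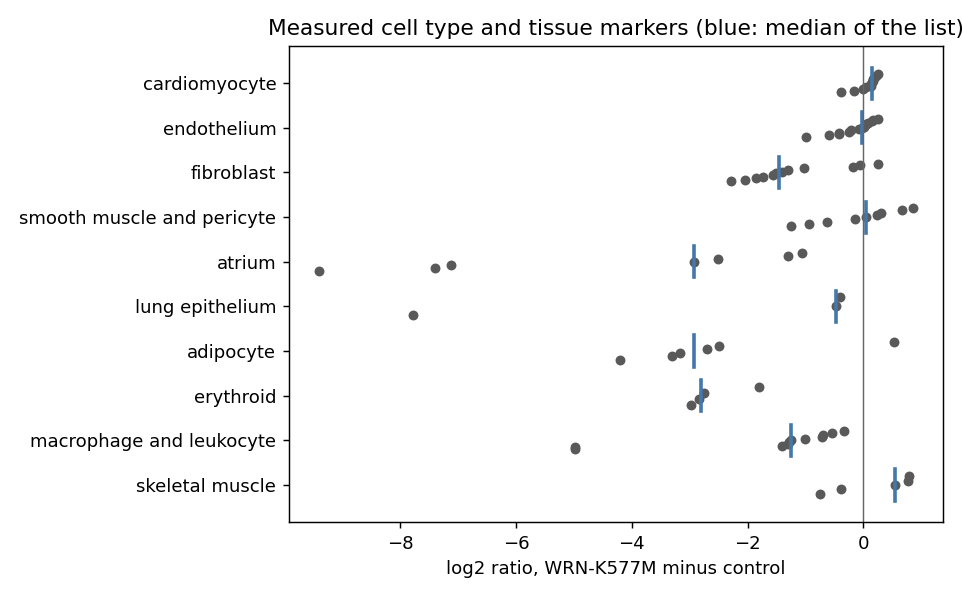
Each point is 1 measured marker gene, placed by its log2 ratio (WRN-K577M minus control, horizontal axis), in 10 lists of cell types and tissues. Blue bars are list medians: endothelial and cardiomyocyte markers sit near 0, while all 7 measured atrial markers lie at or below -1.06. Lung markers well above background in the control only have no ratio and are not drawn.

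Promoter sequence is shown for the 3 members past 1.5-fold (Gdf15, Bmp6 and Inhbb), for the target Id3, and for 2 other targets of the pathway that were at least 2-fold different, Atoh8 and Hamp. Each line gives the 250 bases upstream of the transcription start, 5′ to 3′ on the gene's strand, from RefSeq on GRCm38.p6, and where RefSeq has several starts the one nearest the annotated end of the gene is used. Capitals mark GGCGCC, a GC-rich element bound by BMP-activated Smads, and GTCT or its complement AGAC, the core letters bound by Smad3 and Smad4.
Gdf15, chr8:70632457-70632706, minus strand: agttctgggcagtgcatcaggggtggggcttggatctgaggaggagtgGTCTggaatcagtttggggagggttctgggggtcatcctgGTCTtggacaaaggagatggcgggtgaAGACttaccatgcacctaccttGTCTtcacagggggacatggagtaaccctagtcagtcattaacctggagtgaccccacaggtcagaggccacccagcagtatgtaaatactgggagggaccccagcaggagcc
Bmp6, chr13:38345466-38345715, plus strand: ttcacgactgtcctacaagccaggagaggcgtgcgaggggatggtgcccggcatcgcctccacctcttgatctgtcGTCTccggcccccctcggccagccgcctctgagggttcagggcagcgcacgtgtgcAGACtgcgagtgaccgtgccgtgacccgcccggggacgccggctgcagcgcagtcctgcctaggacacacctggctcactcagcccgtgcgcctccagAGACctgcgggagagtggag
Inhbb, chr1:119422249-119422498, minus strand: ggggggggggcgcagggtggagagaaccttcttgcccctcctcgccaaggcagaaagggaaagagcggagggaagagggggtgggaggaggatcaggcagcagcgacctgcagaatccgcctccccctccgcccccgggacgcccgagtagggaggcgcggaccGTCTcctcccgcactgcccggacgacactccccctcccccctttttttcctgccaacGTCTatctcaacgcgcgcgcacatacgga
Id3, chr4:136143572-136143821, plus strand: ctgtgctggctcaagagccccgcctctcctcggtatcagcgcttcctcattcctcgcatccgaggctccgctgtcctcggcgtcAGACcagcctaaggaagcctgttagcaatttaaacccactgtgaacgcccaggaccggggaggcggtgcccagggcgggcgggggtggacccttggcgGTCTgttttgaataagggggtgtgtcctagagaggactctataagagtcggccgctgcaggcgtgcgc
Atoh8, chr6:72235578-72235827, minus strand: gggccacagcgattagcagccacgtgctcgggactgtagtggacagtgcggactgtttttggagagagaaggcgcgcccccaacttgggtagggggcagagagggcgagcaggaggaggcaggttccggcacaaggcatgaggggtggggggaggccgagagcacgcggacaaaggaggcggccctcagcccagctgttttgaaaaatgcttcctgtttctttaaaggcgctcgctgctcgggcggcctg
Hamp, chr7:30944030-30944279, minus strand: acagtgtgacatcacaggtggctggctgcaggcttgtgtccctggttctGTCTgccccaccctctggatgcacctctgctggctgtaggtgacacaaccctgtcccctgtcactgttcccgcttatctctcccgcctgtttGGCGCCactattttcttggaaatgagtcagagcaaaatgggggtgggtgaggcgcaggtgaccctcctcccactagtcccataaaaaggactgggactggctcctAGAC

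Hamp, the gene of the iron hormone hepcidin and a classical target of BMP6 in liver, holds 1 GGCGCC, whose first base lies 109 bases upstream of the start. Among the 8 members with a promoter in the RefSeq table, 1 of 8 holds GGCGCC, the receptor gene Bmpr2, against 9.59% of 32851 promoters of the same length, and 7 of 8 hold GTCT on either strand, against 82.9%. The Gdf15 stretch holds 4 GTCT on both strands together, that of Bmp6 3, those of Inhbb, Id3 and Hamp 2 each, and that of Atoh8 neither motif. The motifs do not overlap each other in any of the 6 stretches. A match is a description of letters and not of binding.

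Gdf15, the stress cytokine, had a control level of -0.83 and a WRN-K577M level of 0.59. Its processed signal was 144 and 316, with spot medians of 169.5 and 336 over local backgrounds of 40 and 43. The log2 ratio was 1.42, or 2.67-fold higher, 6.90 times the software's error of 0.21. Only 83 of the 14003 measured genes had a higher ratio. Gdf15 was higher before scaling too, with a log2 ratio of 1.13. Gfral, the hindbrain receptor of GDF15, was not well above background on either array.

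Bmp6, the ligand that endothelium of the liver makes to raise hepcidin, had a control level of 0.68 and a WRN-K577M level of 1.35. Its log2 ratio was 0.67 with a software error of 0.20, and 731 measured genes had a higher one. Bmp4, which patterns the outflow tract and valves in the embryo, had a level of 1.67 and 2.07 by its measured probe, a ratio of 0.41. Its second probe had levels of -6.84 and -6.35, not well above background on either array, so that the gene rests on a single probe. Bmp2, a ligand made by embryonic myocardium during valve formation, ran the other way with a level of -1.68 and -2.20, a ratio of -0.52. The Bmp2 processed signal was dim, 80.0 and 45.7. Its spot medians were 115 and 85.5 over a local background of 40 on both arrays. After normexp background correction the Bmp2 ratio was -0.09. The 3 BMP ligand genes therefore lay on both sides of 0: Bmp6 and Bmp4 were higher and Bmp2 lower in the WRN-K577M heart.

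The activin subunits differed from each other. Inhbb, the beta-B subunit, had a control level of -0.27 and a WRN-K577M level of 0.39, a log2 ratio of 0.66 that was exceeded by 764 measured genes. Inhba, the beta-A subunit, had a level of -0.33 on both arrays and a ratio of -0.00045. Adipocytes express Inhbb, and 5 of the 6 measured adipocyte markers were at least 2-fold lower in the same heart, the other being Fabp4 at 0.53. Plin1 and Ucp1, 2 further adipocyte markers, were well above background in the control alone, at least 9.06-fold and 11.3-fold lower. Fabp4 included, the adipocyte markers summed to 162 (control) and 197 (WRN-K577M). That sum is mostly Fabp4, the brightest of them, with levels of 7.07 and 7.59, so it says little of the others. Inha, the alpha subunit that turns activin into its antagonist inhibin and no member of the 10, had levels of 0.13 and -0.96, a ratio of -1.10, and of -0.83 after normexp.

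Mstn encodes myostatin, which limits muscle growth. Its probe gave processed signals of 9.20 (control) and 11.2 (WRN-K577M), with spot medians of 47 and 51 over local backgrounds of 41 and 44. Both values were below the software's limit for a signal well above background, so no ratio is given.

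**Figure D2:**
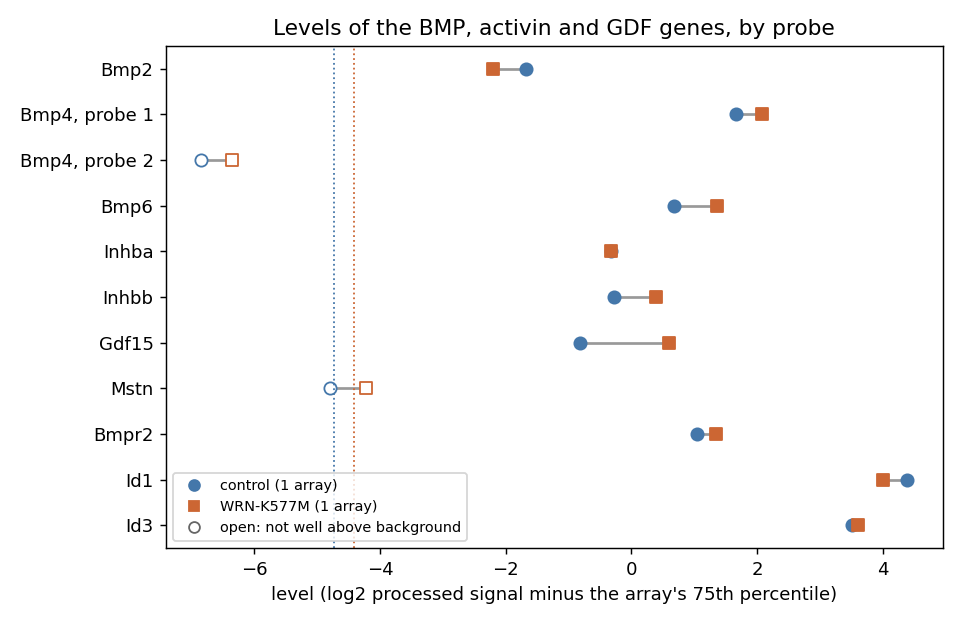
Each row is 1 probe of a member. The horizontal axis is the level (log2, relative to the 75th percentile), with blue circles for the control array and orange squares for the WRN-K577M array. Open symbols are not well above background, and dotted lines mark the lowest level of any probe well above background on each array (-4.73 and -4.42). The widest gap between filled symbols is that of Gdf15, from -0.83 to 0.59.

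Bmpr2, the type II BMP receptor whose loss causes hereditary pulmonary arterial hypertension in humans, had a control level of 1.04 and a WRN-K577M level of 1.34. The log2 ratio of 0.30 was 1.48 times the software's error. Its processed signal before scaling was 525 and 530, a log2 ratio of 0.015, and scaling adds the same 0.29 to every gene. Before scaling Bmp6 was at 0.38, Inhbb at 0.37, Bmp4 at 0.12, Id3 at -0.18, Inhba at -0.29, Id1 at -0.67 and Bmp2 at -0.81. Under the other scalings and normalizations that were tried the Bmpr2 ratio ran from 0.25 to 0.31.

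The target genes also diverged. Id1 had a control level of 4.39 and a WRN-K577M level of 4.002, a log2 ratio of -0.39, or 1.31-fold lower, with a software error of 0.20. Id3 had a level of 3.50 and 3.61, a ratio of 0.11, which is within the spread between spots. Both genes are expressed in endothelium, whose 15 markers had a median ratio of -0.025, from -0.99 for the tight junction gene Cldn5 to 0.25 for Robo4. Id2, of the same family, had levels of 0.75 and 0.24, a ratio of -0.51. Id4 was at 0.25, with levels of -3.70 and -3.46. The 4 Id genes thus fell on both sides of 0, and none was 2-fold different.

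**Figure D3:**
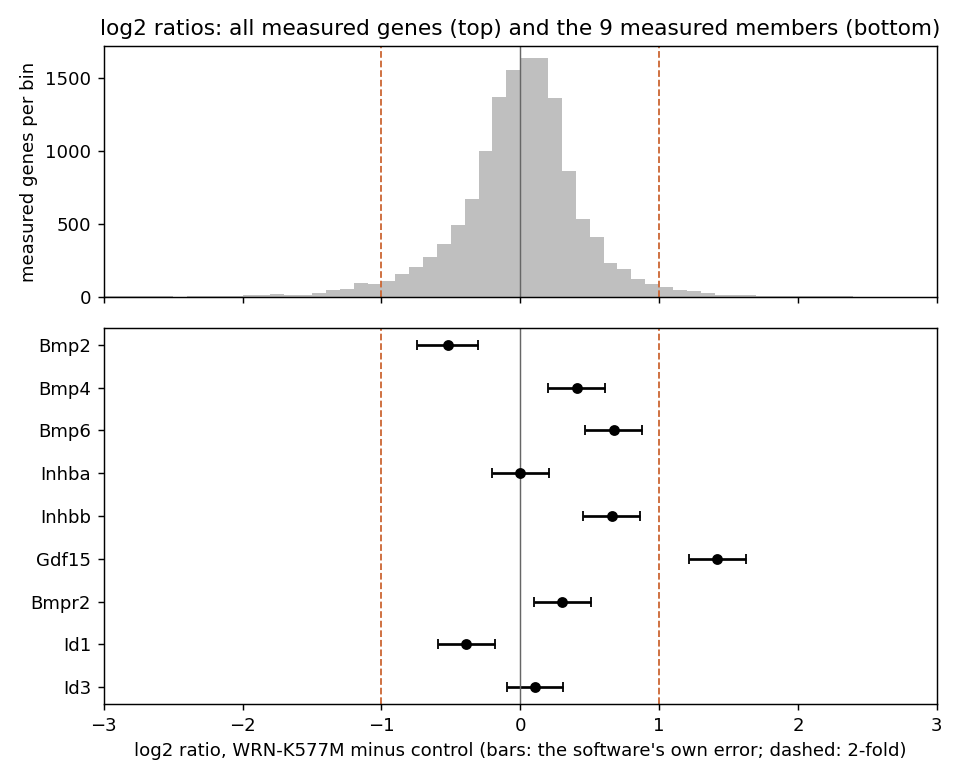
The upper panel counts all measured genes in bins of 0.1 of the log2 ratio (WRN-K577M minus control), and the lower panel places the 9 measured members on the same axis, with bars for the software's own error. Dashed lines mark 2-fold. Gdf15 at 1.42 is the single member beyond a dashed line. The axis ends at -3 and 3, and genes beyond it are not drawn.

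The median log2 ratio of the 9 measured members was 0.30, against 0.020 over all measured genes, and 6 of the 9 lay above 0, where 52.4% of measured genes did. The median member was Bmpr2, at 0.015 before the scaling that shifts all genes alike. The 0.020 of all measured genes is a value after scaling, and the gap between these medians is the same before it. At 1.5-fold, 3 members were higher and 0 lower, against 6.76% and 9.16% of measured genes. No member was 3-fold different, where 0.45% of measured genes were as much higher and 1.1% as much lower. Sorted by ratio, the members ran from Bmp2 at percentile 10.8 and Id1 at 15.4 of all measured genes, through Inhba at 47.5, Id3 at 60.0, Bmpr2 at 80.9 and Bmp4 at 87.1, to Inhbb at 94.5, Bmp6 at 94.8 and Gdf15 at 99.4. The members were named for their pathway with earlier results of these data known, so these values describe them and test nothing.

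The other genes of the pathway were taken from 5 lists by role with 94 genes, of which 67 were measured. Of these 67, 2 were at least 2-fold higher (Atoh8 and Wfikkn2) and 4 at least 2-fold lower (Gdf1, Gdf10, Inha and Hamp), where 1.94% and 3.46% of all measured genes were. With the median of all probes as the scale, or in the deposited matrix, the counts were 1 and 4, and after normexp 0 and 0. Their median log2 ratio was -0.14, or -0.12 over 73 genes with bounds included, and 24 of the 67 lay above 0, where 52.4% of all measured genes did. The wider pathway thus had its median on the other side of 0 from that of the members.

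Among 23 other ligand genes 12 were measured, 3 of them at least 2-fold lower and none as much higher. Over all measured genes the shares were 3.46% for lower and 1.94% for higher. After normexp Gdf1, Gdf10 and Inha were all under 2-fold. Gdf1, a left-right patterning ligand whose message is shared with the ceramide synthase gene Cers1, had a control level of -0.50 and a WRN-K577M level of -1.64, a ratio of -1.14 that was -0.57 after normexp. A second Gdf1 probe was not well above background on either array, and signal of the ligand and of Cers1 may not be separable here. Gdf10, also called Bmp3b, had levels of -1.82 and -2.96, a ratio of -1.14. After normexp the Gdf10 ratio was -0.35, and the stricter filter on dim probes leaves Gdf10 out. The other brightest probe of the list, that of Bmp8a, gave levels of -0.72 and -0.45. Bmp10, an atrial ligand, was not well above background on either array. Bmp10 and Gfral fall outside the rule for named genes and were chosen after their values were seen.

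Of 16 receptor and co-receptor genes 12 were measured, none of them 2-fold different, with ratios from -0.71 to 0.47. Acvr1c, the type I receptor ALK7, was well above background in the control alone, at least 1.799-fold lower, and was chosen after its value was seen. The type I receptors Acvr1, Acvrl1, Bmpr1a and Acvr1b had ratios of -0.34, -0.21, -0.10 and 0.47, and the type II receptors Acvr2a and Acvr2b of 0.31 and 0.47. Endoglin (Eng), a co-receptor of endothelium, had levels of 3.17 and 3.09. The co-receptors of the repulsive guidance molecule family differed: Rgma had levels of 3.57 and 3.85, a ratio of 0.28, and hemojuvelin (Hjv), the BMP6 co-receptor that drives hepcidin in liver, had levels of 3.01 and 2.30, a ratio of -0.71. Amhr2, the receptor of anti-Müllerian hormone, had a ratio of -0.69 at a dim level of -1.83 in the control, and of -0.19 after normexp.

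Of 28 extracellular inhibitors and processing enzymes 18 were measured, with a median of -0.049. Wfikkn2, a secreted protein that binds myostatin and GDF11, had a control level of -0.33 and a WRN-K577M level of 0.70, a ratio of 1.03, and of 0.86 after normexp. A second measured probe of Wfikkn2 gave 1.11, and the remaining probe was not well above background. Kcp, a chordin-like protein that enhances BMP signalling, had levels of 0.18 and -0.61, a ratio of -0.79. Fstl1, a follistatin-like protein of connective tissue, had levels of 4.17 and 3.50, a ratio of -0.67. In the same heart 9 of 12 fibroblast markers were lower by 2-fold or more, with a list median of -1.45. The DAN family antagonist Nbl1 had a ratio of -0.33 and the proprotein convertase Furin one of 0.17. Fst, follistatin, which traps activin and myostatin, had levels of -2.59 and -1.89, a ratio of 0.70, and was chosen after its value was seen. Pcsk6 at -0.76 and Bmper at -0.71, chosen likewise, were brighter and lay on the other side of 0.

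All 15 Smads and Smad regulators were measured, none 2-fold different, with a median of -0.15. Smad1, a BMP receptor Smad, had a ratio of 0.72 from a control level of -1.72, and of 0.38 after normexp, while its second probe gave 0.34. Smad5 and the common Smad4 were near equal by their brightest probes, at -0.10 and 0.059, and their second probes gave 0.47 and 0.38. The inhibitory Smads Smad6 and Smad7, which are themselves induced by BMP and by activin or TGF-beta signals, had ratios of -0.20 and 0.31. Pmepa1, a feedback inhibitor of TGF-beta signalling, had levels of 2.11 and 1.29, a ratio of -0.82, and its second probe gave -0.78. The Smad phosphatase gene Ppm1a had a ratio of 0.31.

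Of 12 further targets 10 were measured. Atoh8, a basic helix-loop-helix factor of endothelium induced by BMP, had a control level of -0.93 and a WRN-K577M level of 0.19, a ratio of 1.12, and of 0.84 after normexp. Hamp had levels of -1.61 and -4.13, a ratio of -2.52, or 5.73-fold lower. Hamp is also an atrial marker, and the 6 other measured atrial markers were each at least 2-fold lower in the same heart. The Hamp ratio was -0.75 after normexp, and the stricter filter on dim probes leaves Hamp out. Its WRN-K577M level lay close to the lowest level of any probe well above background on that array, -4.42. The Notch and BMP target Hey1 had a ratio of -0.12 and Gata2 one of 0.28. Hey2 at 0.68, from a dim control level of -3.19, and Hes1 at 0.54 were chosen after their values were seen. So were Msx1 at -0.35 and Msx2 at -0.23, which lay on the other side of 0. Of the 10 measured, 5 lay above 0 and 5 below, with a median of 0.065.

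**Figure D4:**
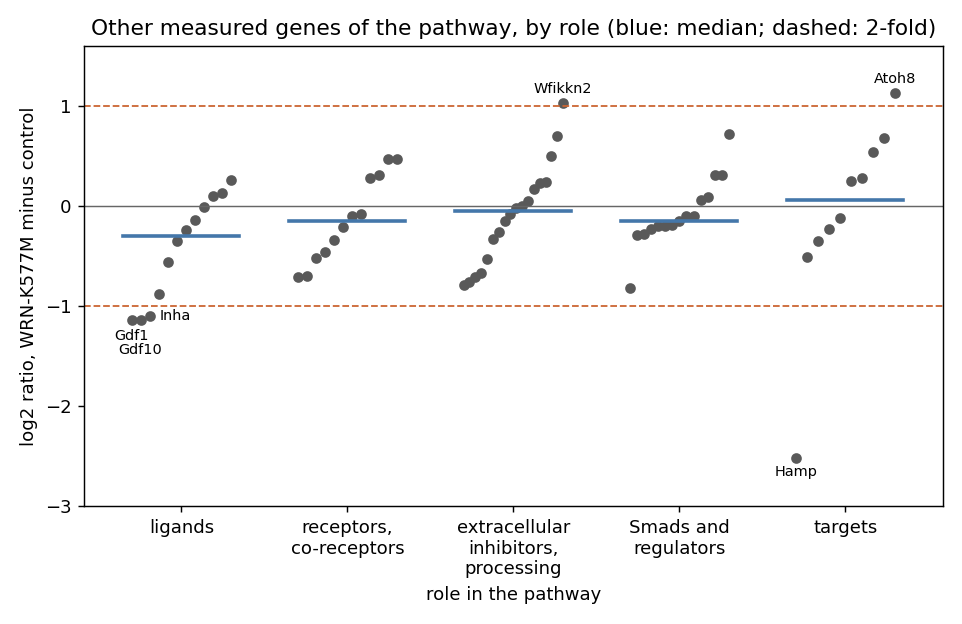
Each point is 1 of the 67 measured pathway genes outside the members, grouped by role on the horizontal axis, and the vertical axis is the log2 ratio (WRN-K577M minus control). Blue bars are medians, from -0.30 for the ligands to 0.065 for the targets, dashed lines mark 2-fold, and the 6 genes beyond them are named. Hamp at -2.52 lies below the rest.

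**Figure D5:**
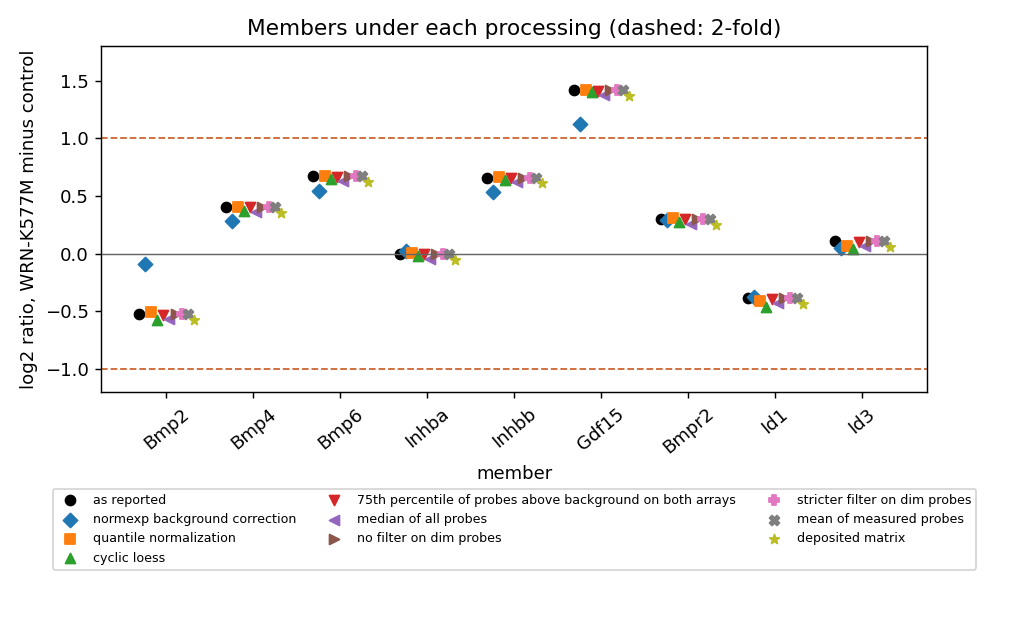
The log2 ratio (vertical axis) of each measured member (horizontal axis) is drawn as processed for the values above (black circle) and under 9 alternatives (coloured symbols). Dashed lines mark 2-fold. Gdf15 stays above 1 under all 9, with its lowest value, 1.12, after normexp, and Bmp2 reaches -0.09 there.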

How the data were processed

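Per the submitters' processing notes, the authors' scanner files came from Agilent Feature Extraction 11.5.1.1. They hold, per the file headers, intensity values: a processed signal that is background-subtracted, detrended and not scaled between arrays, its error, and raw spot and background medians. The deposited matrix is linear intensity, equal in each column to the processed signal multiplied by a constant, 4.12 for the control and 4.86 for WRN-K577M, with medians of 79.5 and 79.0. The sources used here do not give the choice of constants. Per the file headers the design's build is mm9.

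Control spots and 257 outlier spots were left out, no spot was saturated, and spots of a probe were averaged. Of 55680 probes on each array, 28330 (50.9%) got 1 symbol from RefSeq accessions through a table of GRCm38.p6. The level is log2 processed signal minus the 75th percentile over non-control spots. A gene took its brightest probe well above background on both arrays. A gene above background on 1 array has a bound, with the dimmer array taken at its own value or at that array's lowest level among probes well above background, whichever was higher. With 1 array per group no test was made, genes were counted at 2-fold, and precision is limited by having 2 arrays.

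The members, the 5 pathway lists and the 10 marker lists were chosen with earlier results of these data known. Named pathway genes are those past 2-fold, the 3 brightest and, in each list, the 2 farthest from 0. Genes named beyond these were chosen after their values were seen. Counting was tested on simulated data. Alternatives were normexp (limma, offset of 50, on spot medians), quantile, cyclic loess, 2 other scalings, a looser and a stricter filter on dim signals, the deposited matrix, averaging over probes, and counting at 1.5-fold or 3-fold. Python 3.11.15, numpy 2.4.6, pandas 2.3.3, matplotlib 3.10.9, R 4.3.3 and limma 3.58.1 were used.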

Additional observations from a re-analysis of the deposited data

How the results depend on the processing

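Gdf15 was the single member at least 2-fold higher, and no member was as much lower, under all 9 alternatives of background, scaling, filter, probe choice and matrix. At 1.5-fold 3 members were higher, at 3-fold 0. Of the 9 members measured, Inhba alone changed sign, in 2 alternatives (range -0.051 to 0.021). The members' median stayed above 0 (0.25 to 0.35) and that of the other pathway genes below 0 (-0.20 to -0.018) in all 9. Counts of other pathway genes are of 67 where no other total is given. The number higher was 0 after normexp, 1 with the median of all probes, and 1 in the deposited matrix. It was 6 of 94 with no filter on dim probes, 5 at 1.5-fold and 0 at 3-fold. The number lower was 0 after normexp, 9 of 94 with no filter, 2 of 51 with the stricter filter, 12 at 1.5-fold and 1 at 3-fold. Without the pathway genes that are also markers, an alternative chosen after seeing the data, the counts were 2 and 3 of 65. Over all 14003 measured genes, normexp gave 115 higher and 197 lower, 1.5-fold 946 and 1282, and 3-fold 63 and 154. With no filter the counts were 1240 and 1080 of 21368 genes, and with the stricter filter 191 and 304 of 11903. Normexp adds a constant to every signal, no filter brings in genes not above background, and the stricter filter tests fewer genes. The part of each in these changes was not tested. Dim signals limit Mstn, Bmp2, Gdf10, Amhr2 and Hamp. Control levels below that of Bmp2 were also read for Acvr1b, Fst, Smad1, Msx2, Hey2, Id4 and the second Smad5 probe, and limit these too. No paired analysis was possible because each group has 1 array.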
